A study of Rattus norvegicus with 40 samples.

Results

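Collagen chain genes were followed in rat liver during chemical hepatocarcinogenesis. The members were all genes of the count table whose symbol reads Col, a type number, a and a chain number, which gave 27 of 17337 genes. They comprised 10 fibrillar chains, 3 basement membrane chains and 14 other chains. Male Fischer 344 rats, 7 weeks old at the start, received weekly intraperitoneal injections of diethylnitrosamine (DEN, 50 mg/kg in olive oil), a liver carcinogen that hepatocytes activate. Animals were sampled after 8 weeks of DEN, after 14 weeks of DEN, or at 20 weeks, which was 14 weeks of DEN followed by 6 weeks without it. Non-tumoral (NT) liver was taken at all 3 time points and 2 nodules per rat at 14 and 20 weeks. Age-matched untreated rats gave the no DEN liver of each time point. Each of the 8 groups held 4 rats, so 40 libraries came from 24 rats, 12 DEN-treated and 12 no DEN, and both nodules of an animal were summed to give 1 value per rat.

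Collagens are triple-helical proteins, and most of the liver matrix is built from them. Fibrillar chains (types I, III, V and XI) assemble into the fibres that accumulate in scars, type IV chains form the sheet-like network of basement membranes under vessels and ducts, and fibril-associated chains decorate the surface of fibres. In normal liver the space between hepatocytes and sinusoids holds only a sparse matrix. In chronic injury, stellate cells and portal fibroblasts become myofibroblasts that secrete fibrillar collagen, and a basement membrane forms along sinusoids.

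Not every chain could be measured. Of the chains on the class lists, 10 of 11 fibrillar and 3 of 6 basement membrane chains had a row in the count table. Among the others, 4 of 10 fibril-associated, 2 of 6 beaded filament, 1 of 3 hexagonal network and 3 of 4 transmembrane chains did. So did 2 of 2 multiplexin chains and 2 of 3 anchoring fibril and unclassified chains. Class counts and sums cover these rows only. Levels are given as CPM, counts relative to library size after scaling by the trimmed mean of M-values (TMM), and 16 of the 27 chains reached a mean of at least 1 CPM in at least 1 group. These were Col1a1, Col3a1, Col5a1, Col5a2, Col11a1, Col11a2 and Col27a1 (fibrillar), Col4a1 and Col4a3 (basement membrane), Col14a1 and Col16a1 (fibril-associated), Col6a2 (beaded filaments), Col18a1 (a multiplexin), Col8a1 (hexagonal networks), Col13a1 (transmembrane) and Col7a1 (anchoring fibrils). The other 11 stayed lower. Of these, Col1a2, the partner of Col1a1 in type I collagen, had 0 read pairs in all 40 libraries, so type I collagen is described here from Col1a1 alone. Whether the annotation used for counting held a usable Col1a2 model was not tested, and the 0 is not read as absence of its mRNA. A filter on low counts let 21 chains into at least 1 comparison and 14 into all 12, and the 6 chains that were never tested had group means of at most 0.0543 CPM. A chain that passed this filter through its high group only is not a random draw, so counts of called chains are given beside the share of all tested genes called the same way. CPM does not correct for transcript length, so levels of chains were not ranked, and a sum of CPM over chains counts reads, of which long transcripts give more.

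Sequences upstream of the start are shown for the chains with the largest rise or fall in a comparison among those above 1 CPM, as the RefSeq annotation of the rat assembly GRCr8 gives them, and these coordinates are not those of the rn6 build on which reads were counted. RefSeq windows were matched for 22 of the 27 chains. Col4a1 and Col4a2 are transcribed away from each other, and the 76 bases between their starts are printed whole. For the others the window is the 250 bases before the start. Capitals mark matches on either strand to the CCAAT box, to the GC box GGGCGG, to the TATA box TATAAA, or to CAGACA, a Smad-binding motif, and none of these motifs contains another.
Col4a1 and Col4a2, between their starts (chr16:84885521-84885596, + strand): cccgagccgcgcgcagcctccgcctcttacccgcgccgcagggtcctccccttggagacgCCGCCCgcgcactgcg
Col4a3 (chr9:91323740-91323989, + strand): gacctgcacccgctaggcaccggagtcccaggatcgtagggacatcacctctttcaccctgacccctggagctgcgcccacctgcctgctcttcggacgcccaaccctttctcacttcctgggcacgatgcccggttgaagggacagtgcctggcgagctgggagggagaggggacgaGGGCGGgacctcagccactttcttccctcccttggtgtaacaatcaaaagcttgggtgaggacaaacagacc
Col11a1 (chr2:204508886-204509135, + strand): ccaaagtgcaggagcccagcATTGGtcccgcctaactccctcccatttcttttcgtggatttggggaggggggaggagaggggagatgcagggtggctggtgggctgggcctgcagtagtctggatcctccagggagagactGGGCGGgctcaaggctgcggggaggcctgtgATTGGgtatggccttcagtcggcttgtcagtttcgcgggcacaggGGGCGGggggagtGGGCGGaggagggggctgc
Col16a1 (chr5:147672846-147673095, + strand): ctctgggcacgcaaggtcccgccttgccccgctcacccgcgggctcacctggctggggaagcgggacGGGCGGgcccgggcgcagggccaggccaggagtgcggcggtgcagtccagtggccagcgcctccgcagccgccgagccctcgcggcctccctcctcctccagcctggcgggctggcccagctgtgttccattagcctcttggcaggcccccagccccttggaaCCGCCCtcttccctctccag
Col18a1 (chr20:11473395-11473644, + strand): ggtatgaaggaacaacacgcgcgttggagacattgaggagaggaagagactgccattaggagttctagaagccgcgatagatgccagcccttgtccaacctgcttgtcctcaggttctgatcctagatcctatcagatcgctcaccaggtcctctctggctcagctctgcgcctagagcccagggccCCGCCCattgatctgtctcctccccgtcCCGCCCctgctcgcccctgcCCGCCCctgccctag

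The stretch between Col4a1 and Col4a2 was 78.9% G or C and held 1 GC box. Windows of the 22 matched chains had a median of 61.2% G or C (40.4% to 75.2%), against 51.2% over all 33469 RefSeq windows. GGGCGG was in 12 of 22 chain windows and in 30.5% of all windows. CCAAT was in 6 of 22 and 34%, TATAAA in 3 of 22 and 12.9%, and CAGACA in 3 of 22 and 17.2%. The starts of Col4a3 and Col4a4 also face away from each other, 412 bases apart. These letter matches describe the windows and are no evidence of a factor at them.

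Counted pairs per library ranged from 20528515 to 160622633, with the deepest library an NT sample at 20 weeks (rat H26), and 16199 to 163191 of them fell on collagen chains. The shallowest was 1 of the 2 nodules of rat F06 at 14 weeks, in which 45.4% of pairs were not assigned to a gene, against a median of 35.2%. The 4 rats named F were all DEN-treated while all no DEN rats were named H, so that naming and the treatment cannot be fully told apart. Scaling factors ran from 0.769 to 1.36 and were lower in no DEN liver, and scaling by library size alone moved the median of all genes up by 0.20, 0.42 and 0.22 on the log2 scale in NT liver at 8, 14 and 20 weeks, and by 0.57 and 0.5 in nodules at 14 and 20 weeks. Hepatocyte markers were high in every library and summed to 231588 to 272882 CPM over the 12 no DEN rats, 194233 to 243311, 143792 to 183895 and 178150.0 to 242624 CPM in NT liver at 8, 14 and 20 weeks, and 124802 to 152881 and 113729 to 180113 CPM in nodules at 14 and 20 weeks. Macrophage markers summed to 219 to 658 CPM over the 12 no DEN rats, 490.0 to 634, 261 to 659 and 311 to 583 CPM in NT liver at 8, 14 and 20 weeks, and 274 to 576 and 281 to 381 CPM in nodules at 14 and 20 weeks. In NT liver 0 of 6 macrophage markers rose at 8, 14 and 20 weeks, and in nodules 1 and 2 rose at 14 and 20 weeks, when 7.29%, 13.1% and 4.89% of all genes rose in NT liver and 23.9% and 23.6% in nodules. Of the 8 hepatocyte markers, 1 was lower in NT liver at 14 weeks and 0 at 8 and 20 weeks, and in nodules 6 were lower and 1 higher at each time point. Of all genes 0.62%, 2.1% and 0.333% were lower in NT liver at 8, 14 and 20 weeks, and 15.2% in nodules at each time point. In whole tissue, fewer cells of a type and less RNA per cell cannot be told apart.

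Collagen mRNA was higher in DEN-treated liver at every time point, in both the fibrillar and the basement membrane class. The fibrillar chains summed to 191 ± 26.5 CPM (SD, n = 4) in no DEN liver and 409.7 ± 61.6 CPM in NT liver at 8 weeks. At 14 weeks the sums were 192 ± 24.2 CPM in no DEN liver, 411 ± 30.6 CPM in NT liver and 434 ± 31.9 CPM in nodules. At 20 weeks they were 168 ± 22.2, 249 ± 26.2 and 297 ± 27.4 CPM. The basement membrane chains summed to 36.2 ± 6.71 and 73.9 ± 3.75 CPM at 8 weeks. They reached 119 ± 12.6 CPM in NT liver and 125 ± 25.7 CPM in nodules at 14 weeks, against 39.9 ± 2.63 CPM in no DEN liver. At 20 weeks the sums were 32.7 ± 2.75 CPM in no DEN liver, 61.5 ± 7.5 CPM in NT liver and 95.9 ± 18.9 CPM in nodules. Most reads of the fibrillar sum were from Col3a1, and single fibrillar chains had other courses. The other chains without Col18a1 summed to 52.2 ± 4.11 CPM in no DEN liver, 87.6 ± 8.31 CPM in NT liver and 92.6 ± 12.5 CPM in nodules at 14 weeks. At 8 weeks they were 46.9 ± 5.83 and 94.3 ± 10.8 CPM, and at 20 weeks 45.8 ± 4.16, 65.3 ± 3.14 and 74.5 ± 8.78 CPM in no DEN liver, NT liver and nodules. With Col18a1, which holds most reads of this class, the sums ran the other way, with 765 ± 52.2, 641 ± 55 and 568 ± 23 CPM at 14 weeks.

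**Figure D1:**
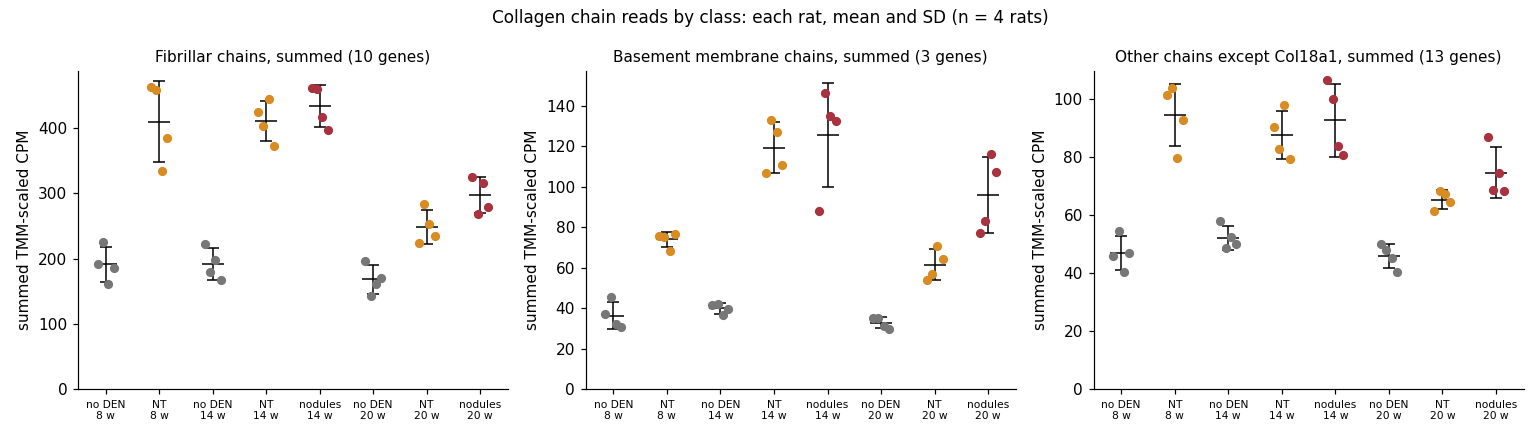
Summed CPM of the fibrillar, basement membrane and other chains (the latter without Col18a1) in each rat (points) of the 8 groups, with the group mean and SD. Fibrillar sums, mostly Col3a1, had means of 409.7 CPM at 8 weeks and 411 CPM at 14 weeks in NT liver, while basement membrane sums, nearly all Col4a1, were 73.9 and 119 CPM.

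In NT liver at 8 weeks, 8 of 15 chains tested rose at least 2-fold at an adjusted p of at most 0.01 and none fell, while 7.29% of all tested genes rose that far. These were 4 of 6 fibrillar chains (Col1a1, Col3a1, Col5a2 and Col11a2), 1 of 2 basement membrane chains (Col4a1) and 3 of 7 others (Col14a1, Col16a1 and Col7a1). The median log2 fold change of the 15 chains was 1.04, and that of all genes was -0.01. At 14 weeks 8 of 17 chains rose, against 13.1% of genes, with medians of 0.89 and 0.02. They were 4 of 8 fibrillar chains, both basement membrane chains tested and 2 of 7 others. At 20 weeks 2 of 14 chains, Col16a1 and Col4a3, were still called, against 4.89% of genes, and the chain median was 0.68. Rises made up 86.2% of all calls at 14 weeks, and 96.5% with library size alone. With the thresholds used for nodules (log2 fold change of at least 0.5 and adjusted p of at most 0.05) 13, 14 and 8 chains rose in NT liver at 8, 14 and 20 weeks, when 16.5%, 22.8% and 14.3% of all genes did. Of the 16 chains above 1 CPM, 12, 14 and 9 had every NT value above every no DEN value at 8, 14 and 20 weeks, compared with 18.7%, 24.7% and 16% of the 10533 genes above that level. Without rats F09 and F10, with 2 NT rats left at 8 weeks, the count was 3 of 15 and 5.49% of genes rose, while the chain median was 0.98. Col1a1, Col3a1, Col7a1, Col11a2 and Col14a1 were then no longer called.

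In nodules, compared with no DEN liver of the same age, 16 of 19 chains tested rose at 14 weeks and 1 fell, against 23.9% and 15.2% of all genes. They were 7 of 8 fibrillar chains, both basement membrane chains tested and 7 of 9 others. At 20 weeks 12 of 17 rose and none fell, against 23.6% of genes rising. They were 5 of 7 fibrillar chains, the 3 basement membrane chains tested (Col4a4 through its nodule reads) and 4 of 7 others. Median log2 fold changes of the chains tested were 1.57 and 0.86 at 14 and 20 weeks, over different sets of chains, and those of all genes were 0.00 and 0.01. The 14-week median is the value of Col5a3, which entered that fit through the nodules. Without rat F06 the 14-week median was 1.13, and with nodule 1 or nodule 2 alone it was 1.19 or 1.17. Without rat H15 the median at 20 weeks was 1.33, over 19 chains. Rises made up 61.2% and 60.8% of all calls at 14 and 20 weeks, and 93.3% and 91.9% with library size alone. Every nodule value lay above every no DEN value for 13 and 11 of the 16 chains at 14 and 20 weeks, as for 26.2% and 25.9% of genes. Nodule values of Col18a1 all lay below at both time points, as did its NT liver values at 8 and 14 weeks. The share of all genes lying below was not computed, so this is given as a value only. Of the chains that rose, 5 at 14 weeks (Col5a3, Col7a1, Col9a2, Col11a1 and Col15a1) and 3 at 20 weeks (Col4a4, Col5a3 and Col7a1) were too low to be tested within no DEN liver and entered through the nodules, so their calls are not read as support. In NT liver this held for 1 chain that rose at 8 weeks (Col7a1) and 2 at 14 weeks (Col7a1 and Col11a1). Among the 14 chains also tested within no DEN liver, 11 and 9 rose in nodules at 14 and 20 weeks. In NT liver 7, 6 and 2 of these 14 rose at 8, 14 and 20 weeks. Cholangiocyte markers summed to 16.1 to 23.6 CPM over the 12 no DEN rats, 29.1 to 36.8, 38.6 to 86.9 and 34.3 to 55 CPM in NT liver at 8, 14 and 20 weeks, and 64.2 to 116 and 69.4 to 181 CPM in nodules at 14 and 20 weeks. Of the 5 markers 0, 5 and 3 rose in NT liver at 8, 14 and 20 weeks, and all 5 rose in nodules at both time points, against 7.29%, 13.1% and 4.89% of all genes in NT liver and the shares above in nodules. Their part in the collagen values was not tested.

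**Figure D2:**
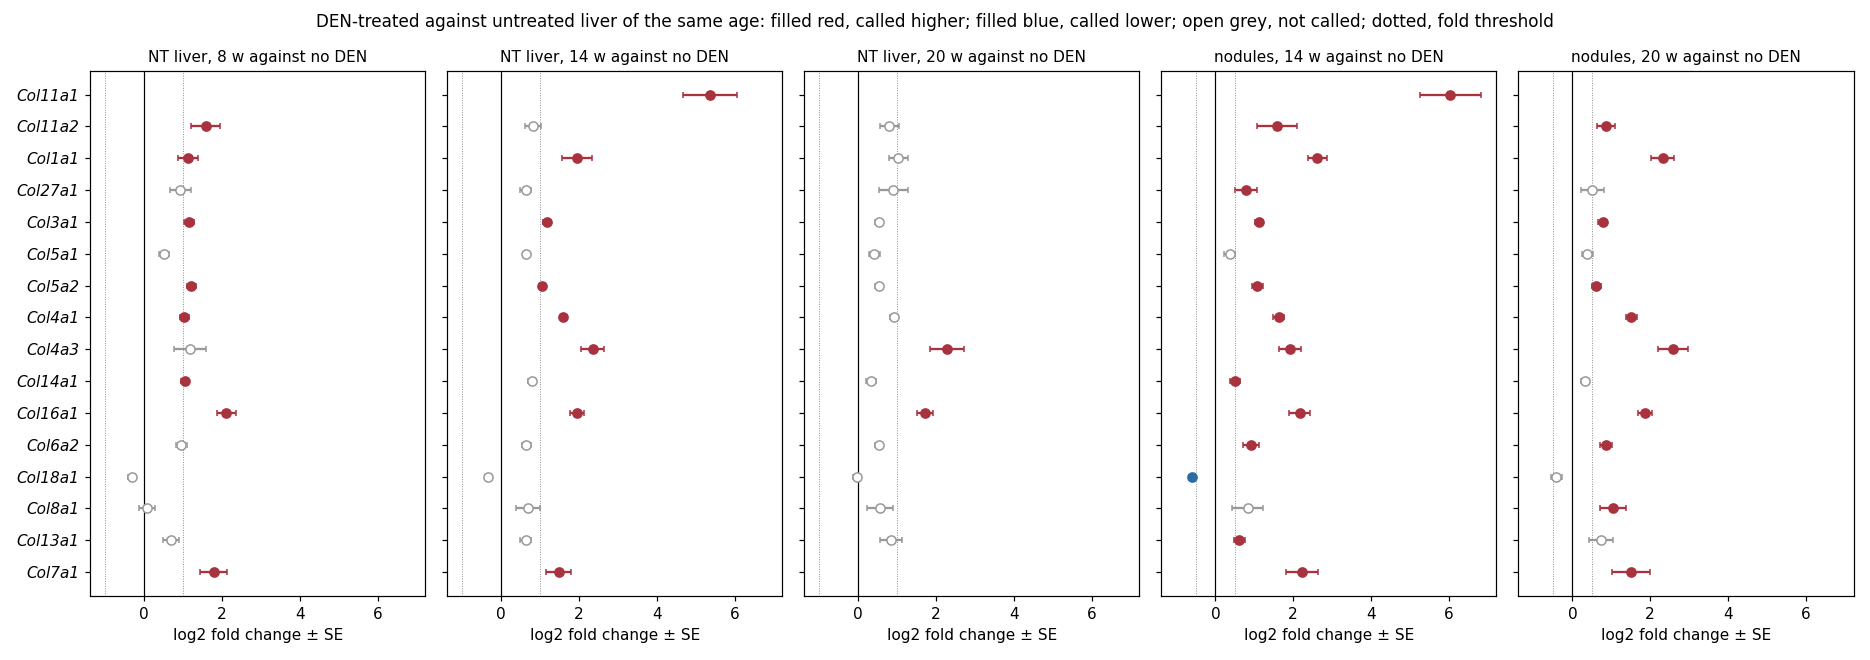
Log2 fold change against no DEN liver of the same age, with its SE, for the 16 chains above 1 CPM in NT liver (8, 14 and 20 weeks) and nodules (14 and 20 weeks). Filled points passed the thresholds of that comparison, and Col18a1 is the only chain called lower, in nodules at 14 weeks.

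Col3a1, the chain of type III collagen that forms fine reticular fibres, rose early. Its level was 145, 159, 119 and 125 CPM in the 4 no DEN rats at 8 weeks and 341, 344, 251 and 284 CPM in NT liver. At 14 weeks it was 165, 127, 144 and 122 CPM in no DEN liver, 329, 297, 328 and 279 CPM in NT liver and 315, 321, 294 and 298 CPM in nodules. Every DEN-treated value was above every no DEN value at both time points, and NT liver overlapped with nodules. At 20 weeks the values were 139, 97.3, 124 and 119.6 CPM in no DEN liver, 158, 176, 178 and 169 CPM in NT liver and 221, 182, 225 and 203 CPM in nodules, still with no overlap with no DEN liver. The log2 fold change in NT liver was 1.15 ± 0.12 (SE, adjusted p = 9.29e-05) at 8 weeks, 1.18 ± 0.10 (SE, adjusted p = 1.21e-05) at 14 weeks and 0.52 ± 0.10 (SE, adjusted p = 0.00494) at 20 weeks, the last one under the 2-fold threshold. In nodules it was 1.12 ± 0.11 (SE, adjusted p = 6.58e-05) at 14 weeks and 0.77 ± 0.12 (SE, adjusted p = 7.63e-04) at 20 weeks.

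Col1a1, the main chain of type I collagen and of scar tissue, varied between rats. At 8 weeks the 4 no DEN rats had 11.4, 9.05, 8.62 and 9.52 CPM and NT liver had 26.5, 29, 11.7 and 17.7 CPM, the higher pair being the rats named F. At 14 weeks the values were 8.69, 9.16, 8.16 and 5.4 CPM in no DEN liver, 23.6, 35.1, 46.1 and 13.3 CPM in NT liver and 44.1, 63.9, 57.4 and 31.1 CPM in nodules. At 20 weeks they were 6.51, 4.9, 3.38 and 6.28 CPM in no DEN liver, 9.66, 8.31, 9.16 and 15.3 CPM in NT liver and 32.8, 13.5, 32 and 29.2 CPM in nodules. DEN-treated values lay above no DEN values at each time point, by a small margin in the lowest NT rats. The log2 fold change in NT liver was 1.13 ± 0.25 (SE, adjusted p = 0.00721), 1.94 ± 0.39 (SE, adjusted p = 0.00387) and 1.03 ± 0.24 (SE, adjusted p = 0.0129) at 8, 14 and 20 weeks, and the last one missed the adjusted p of 0.01. Leaving out 1 rat ended the call at 8 weeks for 6 of the 8 rats, all but H17 and H18, and at 14 weeks for F06, H09, H11, H12 and H21, with adjusted p of 0.0105 to 0.0126 at 14 weeks. In nodules Col1a1 was higher by 2.63 ± 0.25 (SE, adjusted p = 6.04e-05) at 14 weeks and 2.33 ± 0.29 (SE, adjusted p = 2.18e-04) at 20 weeks.

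Type V chains, which start and limit the growth of type I fibrils, were read one by one. Col5a2 was 9.92 ± 1.65 CPM (SD, n = 4) in no DEN and 22.9 ± 1.46 CPM in NT liver at 8 weeks, and 10.8 ± 0.507, 21.6 ± 1.02 and 23.1 ± 4.24 CPM in no DEN liver, NT liver and nodules at 14 weeks. It was called in NT liver at 8 weeks (log2 fold change 1.21 ± 0.12 SE, adjusted p = 5.83e-05) and at 14 weeks (log2 fold change 1.03 ± 0.07 SE, adjusted p = 2.61e-06), although without rat F06 the 14-week value was 0.99, just under the threshold. Col5a1 was measured at 15 ± 1.36 CPM in no DEN liver, 22.8 ± 1.1 CPM in NT liver and 19.6 ± 3.24 CPM in nodules at 14 weeks, and its log2 fold change of 0.64 ± 0.08 (SE, adjusted p = 7.72e-05) in NT liver was under the 2-fold threshold. In nodules it was 0.37 ± 0.13 (SE, adjusted p = 0.0446) at 14 weeks and 0.39 ± 0.14 (SE, adjusted p = 0.043) at 20 weeks, both under the fold threshold for nodules. Col5a3, another type V chain, stayed under 1 CPM and is named after its values were seen. It was 0.107 ± 0.0706 CPM in no DEN liver and 0.649 ± 0.152 CPM in nodules at 20 weeks, with 9 and 179 read pairs over the 4 rats. It entered the nodule fits through the nodules, with fitted differences of 2.55 ± 0.43 (SE, adjusted p = 0.001) at 20 weeks and 1.57 ± 0.40 (SE, adjusted p = 0.00954) at 14 weeks.

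Type XI chains belong to cartilage fibrils in the healthy body. Col11a1 was close to absent from no DEN liver, with 0.0707, 0, 0 and 0 CPM in the 4 rats at 14 weeks, and NT liver had 0.937, 0.843, 1.29 and 0.455 CPM and nodules 0.86, 2.23, 1.56 and 0.78 CPM. In reads over the 4 rats, that was 122 read pairs against 2, a depth-scaled ratio of 48.1 (95% interval 13 to 402) in NT liver, and 399 read pairs against 2, a depth-scaled ratio of 77.6 (95% interval 21.3 to 643) in nodules. These intervals cover counting error only. The fitted log2 fold changes of 5.36 ± 0.70 (SE, adjusted p = 1.20e-04) and 6.04 ± 0.79 (SE, adjusted p = 2.89e-04) are given as values only, since the chain entered both fits through the DEN-treated groups, and with 2 no DEN read pairs, both from rat H09, their size depends on the prior count. At 20 weeks no DEN rats had 0, 0.161, 0 and 0 CPM, NT liver 0.128, 0.0545, 0.285 and 0.0834 CPM and nodules 0.608, 0.203, 0.767 and 0.355 CPM. Nodules lay above no DEN liver and NT liver overlapped with it. The reads were 57 read pairs against 3, a depth-scaled ratio of 5.9 (95% interval 1.92 to 29.4) in NT liver and 131 read pairs against 3, a depth-scaled ratio of 13.3 (95% interval 4.44 to 65.2) in nodules, and the low-count filter kept Col11a1 out of both fits. All 3 no DEN read pairs came from rat H14, and 48 of the 57 in NT liver from H26. The ratio was 2.44 (95% interval 0.609 to 14) without H26. At 8 weeks it was 0.0517 ± 0.0532 CPM in no DEN and 0.162 ± 0.0967 CPM in NT liver, with overlap, and was not tested.

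Col11a2, the other type XI chain here, was highest in NT liver at 8 weeks, at 2.75 ± 0.906 CPM against 0.919 ± 0.501 CPM (log2 fold change 1.57 ± 0.37 SE, adjusted p = 0.00896), and leaving out any 1 of F09, F10, H05, H06, H07 and H18 ended that call. At 14 weeks it was 1.35 ± 0.187 CPM in NT liver and 2.4 ± 2.01 CPM in nodules, of which rat F06 alone had 5.42 CPM, against 0.783 ± 0.141 CPM in no DEN liver. Its call in those nodules (log2 fold change 1.58 ± 0.52 SE, adjusted p = 0.03) was lost without any 1 of the 4 no DEN rats, and without F06 the log2 fold change was 0.83 (adjusted p = 0.0034). Col27a1, a fibrillar chain of cartilage, was 20.4 ± 8.27 and 38.9 ± 7.14 CPM in no DEN and NT liver at 8 weeks, 0.93 ± 0.27 (SE, adjusted p = 0.0252). In nodules at 14 weeks its rise of 0.78 ± 0.28 (SE, adjusted p = 0.0443) was 0.42 without rat F06, which had 51.5 CPM where the other rats had 22.2 to 23.9 CPM, and it was also no longer called without any 1 of the 4 no DEN rats. At 20 weeks Col27a1 passed in neither tissue, with 0.90 ± 0.36 (SE, adjusted p = 0.103) in NT liver and 0.51 ± 0.29 (SE, adjusted p = 0.165) in nodules.

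Markers of cells that make collagen were read beside the fibrillar chains. The 10 stellate cell markers summed to 98.9 to 129 CPM over the 12 no DEN rats, 132 to 148, 126 to 152 and 103 to 117 CPM in NT liver at 8, 14 and 20 weeks, and 131 to 152 and 108 to 122 CPM in nodules at 14 and 20 weeks. Of those tested 2, 3 and 0 rose in NT liver at 8, 14 and 20 weeks, and 4 in nodules at each time point, against 7.29%, 13.1% and 4.89% of all genes in NT liver and 23.9% and 23.6% in nodules. The median log2 fold changes of the list were 0.86, 0.54 and 0.33 in NT liver, and 0.30 and -0.031 in nodules. At 20 weeks the sums in NT liver (103 to 117 CPM) lay within those of no DEN liver (100.3 to 118 CPM). Tagln, an actin-binding protein of myofibroblasts, was up by 1.34 ± 0.24 (SE, adjusted p = 0.00144) in NT liver at 14 weeks, Des by 1.05 and the pericyte gene Rgs5 by 1.56. The portal fibroblast markers summed to 4.1 to 21.8 CPM over the 12 no DEN rats, 11.4 to 21.4, 18.3 to 25.2 and 10.8 to 16.9 CPM in NT liver at 8, 14 and 20 weeks, and 22.9 to 35.9 and 14.3 to 33.1 CPM in nodules at 14 and 20 weeks, with Mfap4 at 0 in all groups. In NT liver 1 of 4 tested rose at 8 weeks, then 3 of 4 and 2 of 3 at 14 and 20 weeks, and all 4 rose in nodules at both time points. The surface glycoprotein Thy1 was up by 4.16 ± 0.25 (SE, adjusted p = 1.88e-06) in NT liver at 14 weeks, where it had 62 to 81 read pairs a rat against 2 to 4 in no DEN liver and entered the fit through the former, with Cd34 at 1.91 and Eln, encoding elastin, at 1.81. The study stained CD34 to detect vessels, so the rise of Cd34 is not assigned to portal fibroblasts alone. The part of stellate cells and portal fibroblasts in the collagen values was not tested.

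**Figure D3:**
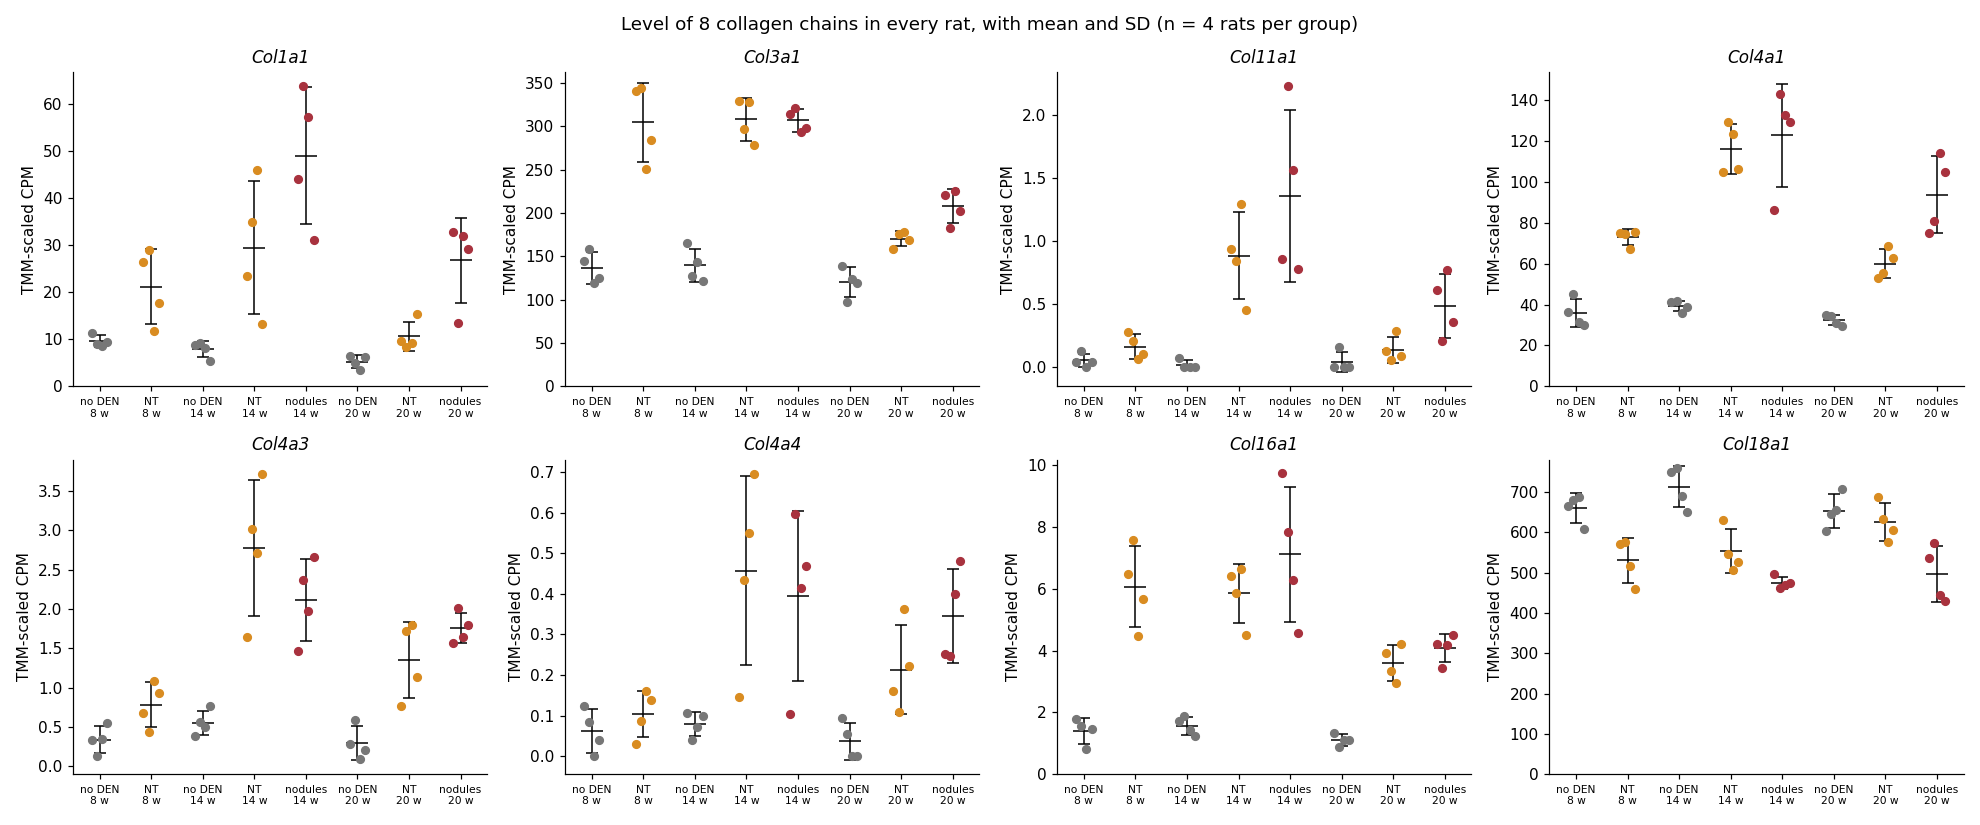
CPM in each rat of the 8 groups for Col1a1, Col3a1, Col11a1, Col4a1, Col4a3, Col4a4, Col16a1 and Col18a1 (points, with the group mean and SD), 4 rats per group. Col4a1 in NT liver at 14 weeks (105 to 129.6 CPM) lies above all 8-week values, while Col3a1 is at like levels at both time points.

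Among basement membrane chains, Col4a1, which with Col4a2 forms the common type IV network, rose by 8 weeks and was higher again at 14 weeks. At 8 weeks it was 36.5, 45.2, 31.6 and 30 CPM in no DEN liver and 74.8, 74.4, 67.1 and 75.7 CPM in NT liver. At 14 weeks the values were 41.2, 41.5, 35.8 and 38.6 CPM in no DEN liver, 105, 129.6, 124 and 106 CPM in NT liver and 86.3, 143, 133 and 129 CPM in nodules. By 20 weeks they were 34.8, 34.3, 31 and 29.5 CPM in no DEN liver, 53, 55.3, 68.5 and 63.1 CPM in NT liver, and 75.1, 80.8, 114 and 105 CPM in nodules. No DEN-treated value overlapped with no DEN liver at any time point, and at 20 weeks nodules were also all above NT liver. In NT liver the log2 fold change was 1.02 ± 0.12 (SE, adjusted p = 1.45e-04) at 8 weeks, 1.59 ± 0.09 (SE, adjusted p = 1.13e-06) at 14 weeks and 0.91 ± 0.10 (SE, adjusted p = 3.25e-04) at 20 weeks. It was 1.62 ± 0.15 (SE, adjusted p = 5.34e-05) and 1.51 ± 0.14 (SE, adjusted p = 4.18e-05) in nodules. At 8 weeks the value was 0.97 without H07 and 0.95 without H08, just under the threshold.

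Col4a3 and Col4a4 share a network known from the filtering membrane of the kidney. Col4a3 was 0.389, 0.56, 0.497 and 0.761 CPM in no DEN liver at 14 weeks, 1.64, 3.02, 2.72 and 3.72 CPM in NT liver and 1.46, 2.37, 1.98 and 2.67 CPM in nodules. At 20 weeks it was 0.283, 0.592, 0.0952 and 0.211 CPM in no DEN liver, 0.768, 1.72, 1.79 and 1.14 CPM in NT liver and 1.57, 2.01, 1.65 and 1.8 CPM in nodules. All DEN-treated values were above all no DEN values at both time points. At 8 weeks the ranges overlapped, with 0.329, 0.126, 0.348 and 0.553 CPM in no DEN and 0.677, 0.438, 1.09 and 0.928 CPM in NT liver (log2 fold change 1.17 ± 0.41 SE, adjusted p = 0.0466). Its log2 fold change in NT liver was 2.35 ± 0.29 (SE, adjusted p = 9.27e-05) at 14 weeks and 2.28 ± 0.44 (SE, adjusted p = 0.00429) at 20 weeks, the largest of the called chains at 20 weeks. That call was lost without any 1 of rats H13, H15, H16 and H26, with adjusted p of 0.0122 to 0.0212. In nodules the values were 1.91 ± 0.28 (SE, adjusted p = 4.95e-04) and 2.59 ± 0.38 (SE, adjusted p = 4.91e-04).

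Col4a4 had few reads, with 0.106, 0.04, 0.071 and 0.0993 CPM in no DEN liver, 0.146, 0.434, 0.55 and 0.696 CPM in NT liver and 0.103, 0.597, 0.414 and 0.468 CPM in nodules at 14 weeks. At 8 weeks it was 0.123, 0.0842, 0 and 0.0395 CPM in no DEN and 0.0308, 0.0876, 0.16 and 0.137 CPM in NT liver, with overlap. At 20 weeks it was 0.0943, 0.0538, 0 and 0 CPM in no DEN liver, 0.16, 0.109, 0.362 and 0.222 CPM in NT liver and 0.252, 0.246, 0.399 and 0.482 CPM in nodules, and neither tissue overlapped with no DEN liver. At 14 weeks NT liver lay above no DEN liver and nodules overlapped with it. In nodules at 20 weeks the reads were 97 read pairs against 3, a depth-scaled ratio of 9.83 (95% interval 3.27 to 48.5). The chain entered that fit through the nodules, and its fitted value there (log2 fold change 3.17 ± 0.69 SE, adjusted p = 0.00366) depends on the prior count. In NT liver at 20 weeks the reads were 78 read pairs against 3, a depth-scaled ratio of 8.07 (95% interval 2.66 to 40), of which 61 came from the deepest library, that of rat H26. The ratio was 4.61 (95% interval 1.33 to 24.5) without H26. Both ratios rest on 2 of the 3 no DEN read pairs from rat H13, and without it they were 22.1 (95% interval 3.87 to 882) in nodules and 18.1 (95% interval 3.16 to 725) in NT liver.

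Endothelial markers were read beside the type IV chains, since vessels lie on basement membrane. The 7 markers summed to 70.9 to 167 CPM over the 12 no DEN rats, 208 to 216, 198 to 244 and 177 to 231 CPM in NT liver at 8, 14 and 20 weeks, and 197 to 243 and 187 to 242 CPM in nodules at 14 and 20 weeks. In NT liver 0, 5 and 0 of 7 rose at 8, 14 and 20 weeks, and 6 of 7 rose in nodules at each time point, against 7.29%, 13.1% and 4.89% of all genes in NT liver and 23.9% and 23.6% in nodules. At 14 weeks in NT liver the junction protein Cdh5 was up by 1.73 ± 0.14 (SE, adjusted p = 1.10e-05), and Stab2, Vwf and Plvap by 1.5, 1.25 and 1.1. At 8 weeks, with 0 called, the NT sums did not overlap those of no DEN liver of that age (105 to 160.1 CPM), and the median log2 fold change of the list was 0.83. The part of endothelial cells in the type IV values was not tested.

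Col16a1, a fibril-associated chain, rose in every comparison with no DEN liver. Its level at 8 weeks was 1.77, 1.56, 0.811 and 1.46 CPM in no DEN liver and 6.49, 7.59, 4.48 and 5.67 CPM in NT liver, a log2 fold change of 2.11 ± 0.24 (SE, adjusted p = 1.30e-04) that was the largest among chains called at that time point. At 14 weeks it was 1.73, 1.88, 1.42 and 1.22 CPM in no DEN liver, 6.42, 5.88, 6.63 and 4.5 CPM in NT liver and 9.73, 7.84, 6.29 and 4.58 CPM in nodules. By 20 weeks no DEN liver had 1.32, 0.861, 1.09 and 1.1 CPM, NT liver 3.93, 3.32, 2.94 and 4.2 CPM and nodules 4.21, 3.43, 4.17 and 4.51 CPM. The lowest DEN-treated value was above the highest no DEN value throughout. Log2 fold changes were 1.94 ± 0.18 (SE, adjusted p = 1.64e-05) and 1.72 ± 0.21 (SE, adjusted p = 5.07e-04) in NT liver at 14 and 20 weeks, and 2.17 ± 0.26 (SE, adjusted p = 1.89e-04) and 1.87 ± 0.18 (SE, adjusted p = 6.26e-05) in nodules.

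Col14a1, another fibril-associated chain that binds small proteoglycans, was 18.8 ± 2.23 CPM in no DEN and 38.6 ± 2.14 CPM in NT liver at 8 weeks (log2 fold change 1.04 ± 0.09 SE, adjusted p = 2.86e-05), and 22.4 ± 2.74, 37.9 ± 3.13 and 32.3 ± 3.94 CPM in no DEN liver, NT liver and nodules at 14 weeks. Its 8-week value was 0.97 without H08, and its call in nodules at 14 weeks (log2 fold change 0.51 ± 0.12 SE, adjusted p = 0.00681) was lost without any 1 of H10, H11, H12, H21 and H23. At 20 weeks its difference in NT liver was 0.33 ± 0.13 (SE, adjusted p = 0.0841). Col6a2, of the beaded filaments around cells, was 20.2 ± 3.61 and 39.3 ± 7.03 CPM at 8 weeks (log2 fold change 0.96 ± 0.15 SE, adjusted p = 0.00108), just under the 2-fold threshold, and it rose in nodules at 14 weeks (log2 fold change 0.91 ± 0.21 SE, adjusted p = 0.00549) and 20 weeks (log2 fold change 0.86 ± 0.16 SE, adjusted p = 0.00163). Col7a1, which makes the anchoring fibrils of epithelium, rose in NT liver at 8 weeks (log2 fold change 1.79 ± 0.35 SE, adjusted p = 0.00279) and 14 weeks (log2 fold change 1.47 ± 0.33 SE, adjusted p = 0.00333), where it was 0.208 ± 0.0659 CPM in no DEN and 0.568 ± 0.133 CPM in NT liver. The 14-week call was lost without any 1 of H09, H12 and H21, and that in nodules at 20 weeks (log2 fold change 1.51 ± 0.49 SE, adjusted p = 0.0252) without any 1 of F03, H13, H14, H16 and H26.

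Col13a1, a transmembrane chain of cell adhesion sites, was 5.25 ± 0.919 CPM in no DEN liver, 7.93 ± 0.94 CPM in NT liver and 8.19 ± 0.311 CPM in nodules at 14 weeks, and the rise in nodules was called (log2 fold change 0.62 ± 0.14 SE, adjusted p = 0.00491). Col8a1, a short chain of vessel walls, differed little at 8 weeks (log2 fold change 0.07 ± 0.20 SE, adjusted p = 0.825) and was 0.711 ± 0.323 CPM in no DEN liver and 1.48 ± 0.459 CPM in nodules at 20 weeks (log2 fold change 1.04 ± 0.34 SE, adjusted p = 0.0267), a call lost without any 1 of H13, H16 and H26. Cartilage chain Col9a2 and the basement membrane zone chain Col15a1 stayed under 1 CPM and, like Col17a1, are named after their values were seen. At 14 weeks Col9a2 was 0.0437 ± 0.0341 CPM in no DEN liver (5 read pairs over the 4 rats) and 0.409 ± 0.1 CPM in nodules (116 read pairs), and Col15a1 was 0.0743 ± 0.059 CPM (8 read pairs) and 0.385 ± 0.106 CPM. Both entered that fit through the nodules, so their calls there are not read as support. At 20 weeks Col9a2 had 102 read pairs against 2, a depth-scaled ratio of 15.5 (95% interval 4.18 to 129.8) in nodules, and without rat F03, which gave 57 of the reads, the ratio was 9.04 (95% interval 2.36 to 76.9). The hemidesmosome chain Col17a1 had 52 read pairs against 2, a depth-scaled ratio of 7.91 (95% interval 2.08 to 67). With so few no DEN reads, leaving out the rat that gave 1 of them raised the ratio to 23.3 (95% interval 4.09 to 929) for Col9a2 (H15) and to 12.3 (95% interval 2.12 to 496) and 11.9 (95% interval 2.04 to 478) for Col17a1 (H14, H15).

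Col18a1, whose protein releases the fragment endostatin and which hepatocytes express, was the only chain called lower. It was 750.1, 759.6, 691 and 652 CPM in no DEN liver at 14 weeks, 631, 546, 507 and 528 CPM in NT liver and 496, 461, 469 and 475 CPM in nodules, with no DEN-treated rat reaching the lowest no DEN rat. At 8 weeks it was 666, 679.9, 688 and 607 CPM in no DEN and 572, 576, 517 and 458 CPM in NT liver. By 20 weeks no DEN liver had 603, 646, 655 and 707 CPM, NT liver 689, 634, 577 and 605 CPM and nodules 537, 573, 445 and 431 CPM. NT liver overlapped with no DEN liver at 20 weeks and nodules did not. The log2 fold change of -0.61 ± 0.09 (SE, adjusted p = 4.26e-04) in nodules at 14 weeks was called lower. In NT liver the values were -0.32 ± 0.09 (SE, adjusted p = 0.0176), -0.33 ± 0.09 (SE, adjusted p = 0.0113) and -0.04 ± 0.09 (SE, adjusted p = 0.767) at 8, 14 and 20 weeks. In nodules at 20 weeks the value was -0.41 ± 0.13 (SE, adjusted p = 0.0251). With library size alone the values were -0.13, 0.085 and 0.18 in NT liver at 8, 14 and 20 weeks (adjusted p of 0.17, 0.341 and 0.0737), and -0.039 and 0.073 in nodules at 14 and 20 weeks (adjusted p of 0.691 and 0.525). That setting moves the median of all genes up by 0.20, 0.42 and 0.22 in NT liver and by 0.57 and 0.5 in nodules. Relative to this shift Col18a1 was at -0.32, -0.34 and -0.046 in NT liver, and at -0.61 and -0.43 in nodules. Hepatocyte markers were lower in the same nodules (6 of 8 at both time points), and their part was not tested.

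Nodules were compared with NT liver of the same rats to ask whether collagen mRNA was higher in the lesions than around them. Without the rat in the fit, 0 of 21 chains were called at 14 weeks and 0 of 21 at 20 weeks, as were 0% and 0% of all genes in edgeR. At an unadjusted p under 0.05, 1 chain was higher and 2 lower at 14 weeks, among 528 and 820 genes, and 5 were higher and 1 lower at 20 weeks, among 1433 and 1334 genes. DESeq2 called 35 genes and 0 chains at 14 weeks, and 902 genes and 3 chains at 20 weeks. NT liver and nodules of a rat deviated together, so the rat was also used as a replicate block. With the block, 5 of 21 chains rose in nodules at 20 weeks, against 9.21% of all genes, and at 14 weeks 0 chains and 0% of genes passed, with 3 chains higher and 3 lower at an unadjusted p under 0.05 among 1048 and 1470 genes. Of the 5 chains at 20 weeks, Col11a1 entered the fit through the nodules. Col5a3, like Col11a1, was too low to be tested in NT liver against no DEN liver of that age. Rats were not left out in turn with the block.

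The 5 chains higher in nodules than in NT liver of the same rats at 20 weeks, with the rat as block, were Col11a1, Col1a1, Col5a3, Col4a1 and Col8a1. Col11a1 was 4.75, 3.72, 2.69 and 4.26 times the level of the rat's own NT liver in the 4 rats (log2 fold change 1.7 ± 0.32 SE, adjusted p = 0.00188). The NT liver of rats F03, H25, H26 and H28 had 4, 2, 48 and 3 read pairs of it. As it entered the fit through the nodules, its call is not read as support. Col1a1 was 3.4, 1.62, 3.49 and 1.91 times its NT level (log2 fold change 1.29 ± 0.22 SE, adjusted p = 0.00899), and 1.87, 1.82, 1.24 and 2.34 times at 14 weeks, higher in 4 of 4 rats at both time points. For Col4a1 the multiples were 1.42, 1.46, 1.67 and 1.67 at 20 weeks (log2 fold change 0.60 ± 0.08 SE, adjusted p = 1.43e-04) and 0.823, 1.11, 1.07 and 1.22 at 14 weeks, when 1 rat was lower. Col5a3 was 2.07, 1.91, 2.76 and 2.01 times its NT level (log2 fold change 1.13 ± 0.26 SE, adjusted p = 0.00614), and Col8a1 1.39, 1.5, 1.6 and 1.34 times (log2 fold change 0.53 ± 0.17 SE, adjusted p = 0.0381). Col3a1 was higher in 4 of 4 rats at 20 weeks without passing (log2 fold change 0.26 ± 0.09 SE, adjusted p = 0.0515). Col18a1 was lower in 4 of 4 rats at both time points, by less than the fold threshold at 20 weeks (log2 fold change -0.37 ± 0.10 SE, adjusted p = 0.0181). Of the marker lists in the same fit, 2 of 4 portal fibroblast markers rose (Thy1 by 1.48 and Eln by 0.63, list median 0.64), as did 3 of 5 cholangiocyte markers (list median 0.90), and 4 of 8 hepatocyte markers fell (list median -0.55), against 9.21% of all genes rising and 5.46% falling. Stellate cell markers had 1 higher and 1 lower of 10 (list median -0.041), endothelial markers 0 of 7 and macrophage markers 1 lower of 6. Their part in the collagen values was not tested.

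**Figure D4:**
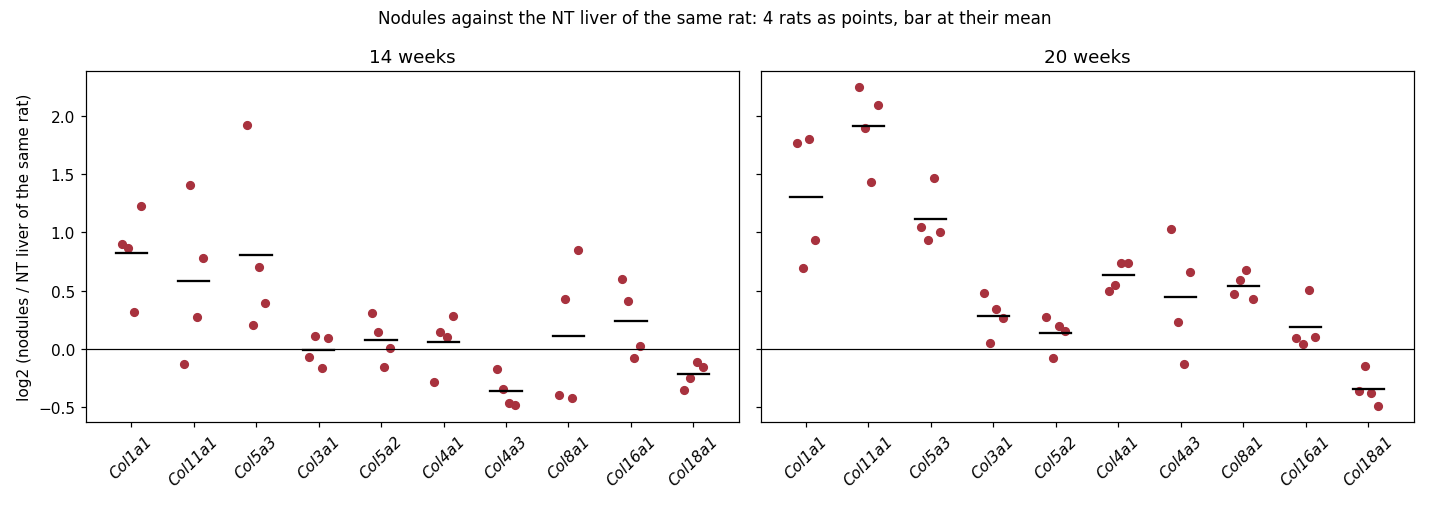
Log2 ratio of nodule to own NT liver for 10 chains, 1 point per rat, at 14 and 20 weeks. Points above 0 are higher in nodules, as in all 4 rats for Col1a1 at both time points and for Col11a1 and Col4a1 at 20 weeks.

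Nodules of the same rat were not alike for every chain. At 14 weeks the higher nodule of a rat had 1.06 to 1.17 times the Col3a1 of the other, and at 20 weeks 1.03 to 1.5 times. For Col1a1 the multiples were 1.12 to 1.66 and 1.06 to 2.68, and for Col4a1 1.16 to 1.26 and 1.06 to 1.99. For Col11a1, at a low number of reads, the multiples at 20 weeks were 1.87 to 8.63. Against NT liver at 20 weeks, 1 of 17 chains and 1.96% of all genes were called with nodule 1 of each rat alone, and 0 of 18 chains and 0 genes with nodule 2 alone.

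Persistence was read from the rats sampled 6 weeks after the last injection. The excess of a chain is the difference of the group means between DEN-treated and no DEN liver in CPM, and the share left is the excess at 20 weeks as a percentage of that at 14 weeks, from different animals. In NT liver 24.7% of the excess of Col1a1, 29.7% of Col3a1, 35.9% of Col4a1, 38.1% of Col5a2 and 31.6% of Col14a1 was left, and without rat H26 the share for Col14a1 was 18.5%. The shares were higher for Col4a3 (47.7%), Col16a1 (58.4%) and Col6a2 (66.9%). For Col4a3 the no DEN mean was also lower at 20 weeks, 0.295 CPM against 0.552 CPM at 14 weeks. Its log2 fold change in NT liver was 2.35 and 2.28 at 14 and 20 weeks, with an interaction of -0.06 ± 0.65 (SE, adjusted p = 0.978). In nodules 52.4% of the excess was left for Col1a1, 52.5% for Col3a1, 73.5% for Col4a1, 93.3% for Col4a3 and 53.9% for Col16a1. In NT liver the shares were 99.4% for Col11a2, 138% for Col13a1 and 183% for Col27a1, and none of these passed at 20 weeks at the thresholds for NT liver. The share for Col27a1 rests on rat H25 (61.5 CPM, the other rats 21 to 32.1 CPM) and was 84.7% without it. Col5a1 had 51.3% and 90.1% left in NT liver and nodules, and Col7a1 55.8% and 43.2%. For Col11a1 the shares were 11.3% in NT liver and 33% in nodules, but 48 of the 57 NT read pairs came from rat H26, without which the share in NT liver was 5.58%. These shares have no error of their own, and the test of the change is the interaction of treatment and time.

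**Figure D5:**
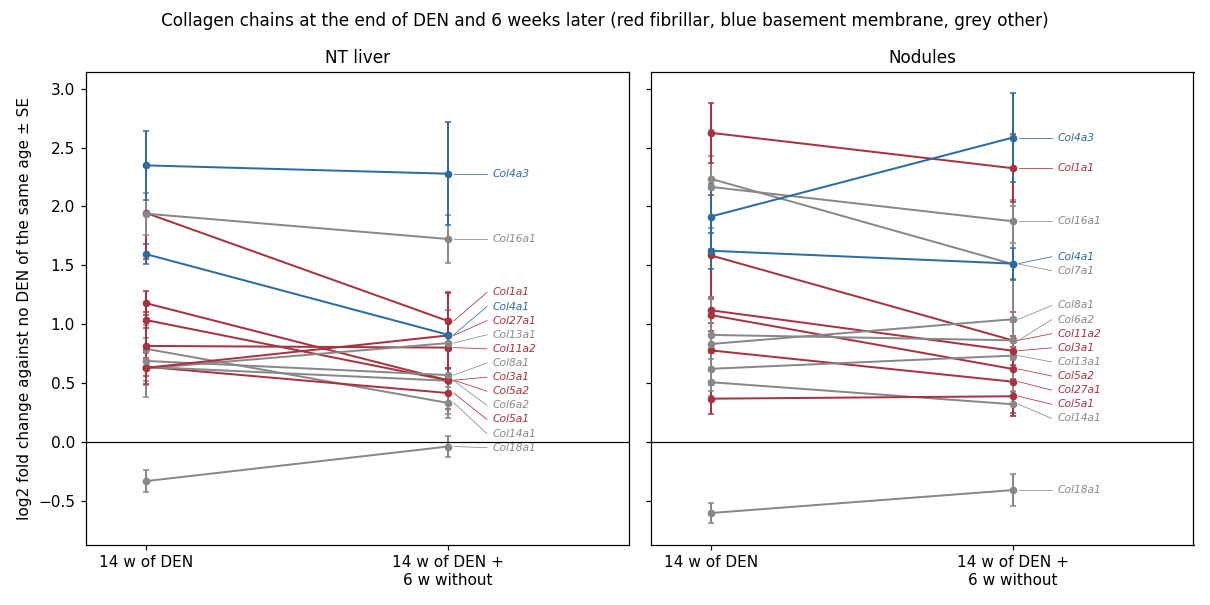
Log2 fold change against no DEN liver of the same age at 14 and 20 weeks with its SE, 1 line per chain (red fibrillar, blue basement membrane, grey other), for NT liver and for nodules. The fall from 14 to 20 weeks passed the test for Col4a1 in NT liver (-0.68).

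In NT liver, Col4a1 was the only chain called for a smaller difference from no DEN liver at 20 than at 14 weeks, with an interaction of -0.68 ± 0.13 (SE, adjusted p = 0.0202), against 0.373% of genes called that way. Leaving out F03, H11, H21 or H22 put the adjusted p at 0.0503 to 0.053, and 1 fit of all 8 groups gave 0 chains. Calls upward were 49.4% of all calls in this comparison and 18.8% with library size alone. Col3a1 (log2 fold change -0.65 ± 0.15 SE, adjusted p = 0.0533) and Col5a2 (log2 fold change -0.50 ± 0.12 SE, adjusted p = 0.0634) had changes of a like size that did not pass. From 8 to 14 weeks, the difference for Col4a1 became larger (log2 fold change 0.57 ± 0.15 SE, adjusted p = 0.029), against 4.16% of genes, and this call was lost without any 1 of F09, H11, H12, H21 and H22 (adjusted p of 0.0513 to 0.0777). Calls upward were 46.5% there, and 89.8% with library size alone. In nodules, 0 chains changed between 14 and 20 weeks and 0.0862% of genes did. At an unadjusted p under 0.05 that comparison had 0 chains up and 2 down, among 157 and 221 genes, and DESeq2 called 29 genes and 0 chains. The interaction for Col4a1 in nodules was -0.12 ± 0.20 (SE), and whether persistence differed between nodules and NT liver was not tested.

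The no DEN rats gave the change with age alone. Between 8 and 14 weeks 0 chains and 0% of genes were called in edgeR, and 1 chain was higher at an unadjusted p under 0.05 and 0 lower, among 570 and 468 genes. Between 14 and 20 weeks it was also 0 chains and 0% of genes, with 0 chains higher and 5 lower, among 344 and 326 genes, at an unadjusted p under 0.05. DESeq2 called 20 and 18 genes and 0 chains in these comparisons.

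The balance of type III to type I mRNA was taken within each rat as the log2 ratio of Col3a1 to Col1a1, which does not depend on scaling between libraries. It was 4.17 ± 0.29 (SD, n = 4) in no DEN liver and 2.7 ± 0.44 in nodules at 14 weeks, and 4.54 ± 0.44 and 3.03 ± 0.49 at 20 weeks. The ranges did not overlap. Each difference, -1.47 and -1.51, reached p = 0.0286 in the exact 2-sided permutation test, the smallest p that 4 against 4 rats allow, and an adjusted p of 0.0714 over the 5 comparisons. In NT liver the differences were 0.10 at 8 weeks (exact permutation p = 0.686), -0.64 at 14 weeks (exact permutation p = 0.2) and -0.5 at 20 weeks (exact permutation p = 0.171).

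Genes that modify, export, cut and cross-link collagen were counted by list, in NT liver beside 7.29%, 13.1% and 4.89% of all genes rising at 8, 14 and 20 weeks. Of 12 hydroxylase genes tested, which modify proline and lysine, 2, 2 and 1 rose in NT liver at 8, 14 and 20 weeks and none fell, with list medians of -0.032, -0.090 and 0.078 on the log2 scale. Plod2, a lysyl hydroxylase, was up by 2.21 ± 0.24 (SE, adjusted p = 4.46e-05) at 14 weeks and P3h4 by 1.31. Of 7 chaperone and export genes 2, 2 and 0 rose, among them the collagen chaperone Serpinh1 (log2 fold change 1.16 ± 0.14 SE, adjusted p = 9.72e-05 at 14 weeks) and Fkbp10 (1.49). Of 4 genes for cleavage of the propeptides 2, 2 and 0 rose, namely Adamts2, the procollagen protease, by 1.49 and Pcolce by 1.35 at 14 weeks. Cross-linking genes had 3, 3 and 0 calls, with Lox at 2.95 ± 0.41 (SE, adjusted p = 1.65e-04) at 14 weeks, when it had 2 to 5 read pairs in each no DEN rat and 23 to 55 in NT liver and entered the fit through the latter, Loxl1 at 2.0 and Loxl2 at 1.85. Of the collagen receptor and uptake genes 1, 3 and 1 rose. The receptor kinase Ddr1 was up by 5.03 ± 0.64 (SE, adjusted p = 4.38e-04) at 14 weeks and 4.03 at 20 weeks, with Ddr2 at 2.26 and the uptake receptor Mrc2 at 1.89 at 14 weeks, both of which were too low to be tested within no DEN liver. In nodules the 5 lists had 3, 3, 2, 4 and 5 members higher at 14 weeks, and the same numbers at 20 weeks, against 23.9% and 23.6% of all genes, with 1 member of the hydroxylation, cleavage and cross-linking lists lower at 14 weeks and 1 of the export, cleavage, cross-linking and receptor lists at 20 weeks. The median of the hydroxylation list in nodules was -0.11 at 14 weeks and 0.011 at 20 weeks. These lists were matched for 14 of 21, 7 of 10, 7 of 8, 6 of 6 and 8 of 10 genes in the count table.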

How the data were processed

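Liver mRNA was sequenced in NT liver, nodules and no DEN liver (strand-specific poly(A) libraries, 75-base pairs). The values used were the raw counts per gene that the authors deposited for each library. Per the submitters' processing notes, STAR 2.7.1a, the rn6 build, HTSeq and DESeq2 1.22.2 were used. The 5 summary rows of the counting (32.8% to 45.4% of pairs) name no gene and stayed out of library sizes and tests. PCR copies were not marked, so intervals cover counting error only. Groups come from the sample labels.

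Members and lists were chosen with earlier results of these data known. Both nodules of an animal were summed. Only the groups compared entered a fit, with filterByExpr, TMM scaling and edgeR 4.0.16 (2-sided quasi-likelihood test with robust fit, in R 4.3.3 with limma 3.58.1), and Benjamini-Hochberg adjustment over all genes tested. Calls needed a log2 fold change of 1 in size and an adjusted p of 0.01 for NT liver, 0.5 and 0.05 for nodules, and an adjusted p of 0.05 for interactions. The code was tested on simulated data. NT liver and nodules come from the same rats by the labels, and their deviations from the group means correlated in all 8 pairs (0.368 to 0.543 over 11596 genes).

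Named were all chains of at least 1 CPM in a group, values in every rat for Col1a1, Col3a1, Col4a1 and, per comparison, the called chains with the largest rise and fall, and from each other list up to 4 called genes with the largest change in NT liver at 14 weeks. Planned ratios of Col1a1 to Col1a2 and Col4a1 to Col4a2 were not computed, as Col1a2 had no reads and Col4a2 is not analysed here. Alternatives were DESeq2 1.42.0, RLE scaling, no filter, 1 fit of 8 groups, each rat left out, no rats named F, single nodules, the rat as block, other thresholds, 1 count added for the ratio and, chosen after seeing the data, library size alone. No test was run for isoforms or proteins.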

Additional observations from a re-analysis of the deposited data

Results flagged for a closer look

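In 9 of 128 groups of 4 rats, 1 rat lay further from the other rats than the Dixon criterion allows, which chance alone gives in about 1 in 20 groups. Rat F06 had 5.42 CPM of Col11a2 in nodules at 14 weeks where the other rats had 1.26 to 1.5 CPM, and 51.5 CPM of Col27a1 where they had 22.2 to 23.9 CPM. Both its nodules were high, at 8.05 and 3.54 CPM of Col11a2 and 60.3 and 47.5 CPM of Col27a1. In NT liver, H17 had 67.1 CPM of Col4a1 at 8 weeks against 74.4 to 75.7 CPM, and H23 had 33.3 CPM of Col27a1 at 14 weeks against 23 to 24.7 CPM.

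Among no DEN rats, H09 had 26.5 CPM of Col14a1 against 20.7 to 21.4 CPM at 14 weeks, H12 had 0.993 CPM of Col11a2 against 0.707 to 0.72 CPM at 14 weeks, and H06 had 16.7 CPM of Col5a1 against 11.5 to 11.7 CPM at 8 weeks. Col11a1 was 0.0707 CPM in H09 at 14 weeks and 0.161 CPM in H14 at 20 weeks, each the single rat of its group above 0.

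The difference of Col4a1 between NT and no DEN liver itself differed between time points. It became larger by 0.57 on the log2 scale from 8 to 14 weeks (adjusted p = 0.029, edgeR) and then smaller, a change of -0.68 from 14 to 20 weeks (adjusted p = 0.0202).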

How the results depend on the processing

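Counts of chains called changed by more than 1.5 times in these settings. With the looser thresholds NT liver had 13, 14 and 8 chains at 8, 14 and 20 weeks (16.5%, 22.8% and 14.3% of genes), and with the stricter ones nodules had 11 and 6 at 14 and 20 weeks (14.2% and 13.4% of genes). Without the rats named F, NT liver at 8 weeks had 3 (5.49% of genes), with a chain median of 0.98 against 1.04. Library size alone gave 15 and 5 in NT liver at 14 and 20 weeks (22% and 8.77% of genes), and 3 of 18 for the change from 14 to 20 weeks (144 of 11245 genes). Nodules against NT liver at 20 weeks had 3 with DESeq2, 3 in 1 fit of all groups and 1 with nodule 1 alone (7.38%, 9.45% and 1.96% of genes). From 14 to 20 weeks the change of the NT difference had 3 of 14 chains with DESeq2 (382 of 10818 genes) and 0 in 1 fit (41 of 11596 genes). From 8 to 14 weeks it had 2 of 18 chains with DESeq2 (1529 of 11276 genes) and 0 in 1 fit (151 of 11596 genes). The cause was not tested.

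With the rat as replicate block, nodules against NT liver had 5 chains higher at 20 weeks (9.21% of genes) and 0 called at 14 weeks (0% of genes). No other call was blocked.

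Leaving out 1 rat gave 5 to 9, 6 to 9 and 1 to 2 chains in NT liver at 8, 14 and 20 weeks. Of genes 5.61% to 8.05%, 11.7% to 13.3% and 2.1% to 5.68% rose there. In nodules it gave 15 to 17 (1 of them lower) and 9 to 14, while 21.2% to 25.8% and 20.7% to 24.5% of genes rose. For nodules against NT liver without the block it gave 0 to 0 and 0 to 1 (0% to 3.84% of genes at 20 weeks). The changes in NT liver had 0 to 3 from 14 to 20 weeks and 0 to 1 from 8 to 14 weeks, with 31 to 408 and 533 to 1870 genes called. Age and the change in nodules had 0. Values turned sign for Col8a1 at 8 weeks without H07 (range -0.028 to 0.19), for Col18a1 in NT liver at 20 weeks without H26 (-0.11 to 0.0024), for the log2 ratio of Col3a1 to Col1a1 at 8 weeks without H17 (-0.070 to 0.21), and for Col18a1 with library size alone (0.085 and 0.18 in NT liver at 14 and 20 weeks, 0.073 in nodules at 20 weeks), a setting that moves the median of all genes up by 0.42, 0.22 and 0.5 there. Chains under 1 CPM rest on few reads. Leaving out 1 rat, chosen after seeing the data, moved the share of excess left in NT liver by over 1.5 times for Col11a1, Col14a1 and Col27a1 among the shares given.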

Other observations

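In nodules against NT liver of the same rats at 20 weeks, with the rat as block in edgeR, 9.21% of all genes rose. Of the collagen-handling lists, 2 of 12 hydroxylation genes (median log2 fold change -0.046), 2 of 7 export genes (0.31), 1 of 6 cleavage genes (0.0025, with 1 lower), 2 of 6 cross-linking genes (0.31) and 2 of 6 receptor and uptake genes (0.41) rose. Ddr1 stood at 9.69 ± 6.2 CPM (SD, n = 4) in NT liver and 40 ± 21.6 CPM in nodules (log2 fold change 2.09 ± 0.10 SE, adjusted p = 1.05e-07), with 0.608 ± 0.152 CPM in no DEN liver. The chaperone Serpinh1 (log2 fold change 0.64 ± 0.09 SE, adjusted p = 2.67e-04), the lysyl oxidases Lox (log2 fold change 1.18 ± 0.28 SE, adjusted p = 0.00761) and Loxl1 (log2 fold change 0.91 ± 0.16 SE, adjusted p = 0.00244), and the hydroxylation genes P3h4 (log2 fold change 1.09 ± 0.20 SE, adjusted p = 0.00152) and Plod2 (log2 fold change 0.69 ± 0.17 SE, adjusted p = 0.00782) were higher too. The propeptide protease Adamts14 was lower (log2 fold change -0.79 ± 0.23 SE, adjusted p = 0.0227) and Tll1 higher (log2 fold change 1.39 ± 0.28 SE, adjusted p = 0.00296). These genes were picked after their values were seen, and without the block edgeR called 0 genes in a fit of these 2 groups, 1096 in 1 fit of all 8 groups, 218 with nodule 1 alone and 445 without rat H25, and DESeq2 called 902. The cholangiocyte markers Krt19 (2.08), Sox9 (1.41) and Epcam (0.90) were higher in the same comparison, and the hepatocyte markers Cyp2e1 (-0.84), Cps1 (-0.72), Ttr (-0.59) and Alb (-0.51) lower. Their part was not tested.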
